A study of Homo sapiens with 10 samples.

Results

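The classic estrogen receptor target genes are 8 genes long used as readouts of estrogen receptor alpha (ER) in luminal breast cancer cells: TFF1, TFF3, AGR2, STC2, CTSD, GREB1, SIAH2 and PDZK1. They were chosen by name, and every Affymetrix U133A 2.0 probe set annotated to 1 of these symbols alone was read, which gave 11 probe sets, of 11963 genes and 19070 probe sets with 1 gene in all. Each gene is led by its probe set of highest mean (all 10 arrays). The cells were clonal lines derived from T47D-Y, a T47D breast cancer line without progesterone receptor (PR), each stably carrying constructs in which the dimerizer AP21967 drives expression. iKR carries the SUMO-deficient K388R PR-B, iWT carries wild-type PR-B, and iEV carries the empty vector and is PR null. iKR and iWT were each measured with AP21967 and the synthetic progestin R5020, with AP21967 and R5020 vehicle, with R5020 without AP21967, and with the ethanol vehicles alone. iEV was measured with and without AP21967 but without R5020. The methods of the study give AP21967 at 1 nM for 2 d and R5020 at 10 nM for 6 h, after serum starvation in a modified medium, and name no estrogen among the treatments. The notation in the sample labels, taken literally, would be 10 times more for both compounds. Each of the 10 conditions is 1 array and each line is 1 clone, so that clone and receptor cannot be told apart, and all p-values measure only the spread between these arrays.

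ER is a ligand-activated transcription factor that binds estrogen response elements, usually far from the genes it controls, with the pioneer factor FOXA1 and other cofactors, and in luminal breast cancer its targets include the PR gene itself. PR shares coregulators and chromatin sites with ER, and ligand-bound PR can alter the transcription of ER target genes in either direction. TFF1 and TFF3 are secreted trefoil peptides, AGR2 is a protein disulfide isomerase of the endoplasmic reticulum, and STC2 is a secreted stanniocalcin glycoprotein. CTSD is the lysosomal aspartic protease cathepsin D, SIAH2 is a RING ubiquitin ligase, PDZK1 is a PDZ domain scaffold, and GREB1 is a cofactor found on chromatin with ER. Values are Robust Multi-array Average (RMA) signals on the log2 scale, so that a difference of 1 is a doubling, and levels of different probe sets are not set against each other.

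Promoter sequences from RefSeq (GRCh38.p14) matched 5 of the 8 genes, namely PDZK1, SIAH2, STC2, AGR2 and CTSD; TFF1, TFF3 and GREB1 did not match. The sequences of CTSD and AGR2 are shown because both genes differed in level between the iKR and iWT lines and their start regions differ in GGTCA, 1 arm of the estrogen response element. The 250 bases before the start are printed 5′ to 3′ on the gene's strand, with GGTCA, or its reverse complement TGACC, in capitals. CTSD lies on the minus strand, and its stretch is chr11:1763928-1764177. AGR2 also lies on the minus strand, and its stretch is chr7:16805000-16805249.
CTSD promoter: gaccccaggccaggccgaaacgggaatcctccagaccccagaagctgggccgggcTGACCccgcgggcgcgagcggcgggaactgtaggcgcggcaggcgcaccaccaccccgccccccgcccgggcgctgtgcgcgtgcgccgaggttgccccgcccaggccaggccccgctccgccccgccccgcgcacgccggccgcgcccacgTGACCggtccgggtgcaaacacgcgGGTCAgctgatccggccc
AGR2 promoter: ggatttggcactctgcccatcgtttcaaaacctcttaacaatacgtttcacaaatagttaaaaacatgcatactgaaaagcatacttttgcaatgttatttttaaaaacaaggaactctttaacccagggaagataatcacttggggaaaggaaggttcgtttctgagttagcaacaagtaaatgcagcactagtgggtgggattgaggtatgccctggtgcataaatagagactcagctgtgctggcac
CTSD held 3 such arms, starting at -195, -43 and -18 from the start, and AGR2 held 0. Over all 35116 promoters of the table, read on both strands from 250 bases before to 50 after the start, 37.4% held GGTCA. The full estrogen response element, GGTCA and TGACC set 3 bases apart, was found in 0.057% of all promoters and in 0 of the 5 members. The full progesterone response element, GNACA and TGTNC set 3 bases apart, was found in 0.39% of all promoters and likewise in 0 of the 5. PDZK1 held 1 GGTCA at -68 and 1 TGTTCT, the right arm of a progesterone response element, at -200 from its start, and TGTTCT was in 14.8% of all promoters. STC2 held 1 GGTCA after its start, so that 3 of the 5 members held this arm. The AP-1 motif TGANTCA, found in 7.71% of all promoters, was in 0 of the 5, and the GC box GGGCGG, found in 45.0%, occurred 5 times in CTSD and 2 times in SIAH2. GGTCA and TGACC are 1 motif on its 2 strands, the full estrogen element contains it at both ends, and TGTTCT shares its first bases with the right end of the progesterone element. A match describes letters in this window only. In the genome, TFF1 and TFF3 lie in the trefoil cluster of chromosome 21, with TFF2 between them, and the other members lie on 6 other chromosomes.

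The labels were checked on the same arrays. All 9 luminal epithelial markers listed reached log2 6, with array means of 12.65 to 13.09 in iKR, 12.88 to 13.14 in iWT and 12.97 to 13.00 in iEV. Of 13 measured markers of basal, stromal, endothelial and immune cells, 12 also reached log2 6, with array means of 7.26 to 7.28 in iKR, 7.22 to 7.32 in iWT and 7.29 to 7.30 in iEV. The PGR probe set was higher by 5.15 in iKR and by 5.01 in iWT than in iEV (adjusted p = 2.4e-05 and 4e-05 from limma), and it was at log2 10.65 or above in iKR and 11.12 or above in iWT also without AP21967, against 6.25 in iEV. Without R5020, AP21967 against none gave a PGR difference of 1.43 in iKR, 0.22 in iWT and -0.08 in iEV. The effect shared by the 3 lines was not called (0.52, adjusted p = 0.58 from limma). FKBP5, a steroid receptor cochaperone known to respond to progestins, rose by 2.99 with R5020 in cells given AP21967 (adjusted p = 3.8e-07) and by 0.84 without AP21967 (adjusted p = 0.021). Without R5020, FKBP5 was at -1.10 in iKR and -1.04 in iWT against iEV (adjusted p = 0.00063 and 0.00086 from limma). The level filter, log2 6 on the highest array, left 10911 genes to test, among them 6 of the 8 members. GREB1 and PDZK1 did not pass with their probe sets of highest mean, whose highest arrays were at 5.55 and 5.01, and they were read in a fit over all 19070 probe sets without the filter, which was chosen after the values were seen.

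GREB1 was the member with the largest R5020 difference, and 1 of its 3 probe sets carried it. Probe set 205862_at was at 6.75 in iKR with AP21967 and R5020, against 5.07 with AP21967 and vehicle. In iWT it was at 7.53 with AP21967 and R5020, against 5.46 with AP21967 and vehicle. Without AP21967, it was at 5.12 with R5020 and 4.97 with vehicle in iKR, and at 5.06 with R5020 and 5.07 with vehicle in iWT. iEV was at 4.48 on both its arrays, with and without AP21967. Both arrays with R5020 and AP21967 therefore stood above all 8 others, and both iEV arrays below all others. The R5020 difference was 1.68 in iKR and 2.07 in iWT. The shared R5020 response with AP21967 was 1.88 (standard error 0.10, adjusted p = 2.2e-05 from limma over all probe sets, higher in 2 of 2 lines), and the response exceeded that without AP21967 by 1.81 (standard error 0.15, adjusted p = 0.00057). Its response did not pass the test for a difference between iKR and iWT, at -0.39 (95% interval -0.70 to -0.09, adjusted p = 0.19). This probe set reaches log2 6 only through its R5020 and AP21967 arrays, and on the other 8 arrays it lies near the low end of the signal.

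The other 2 GREB1 probe sets gave no such difference. The probe set of highest mean, 210855_at, was at 5.50 in iKR with AP21967 and R5020, against 5.31 with AP21967 and vehicle, and at 5.44 in iWT with AP21967 and R5020, against 5.45 with AP21967 and vehicle. Its shared R5020 response was 0.09 (95% interval -0.10 to 0.28, adjusted p = 0.58). Probe set 210562_at spanned 5.15 to 5.39 over the 10 arrays, with a shared response of 0.11 (95% interval -0.07 to 0.30, adjusted p = 0.45). All 3 are annotated to GREB1 alone, so the gene-level call rests on the probe set read. Which transcripts each probe set detects was not tested.

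**Figure D1:**
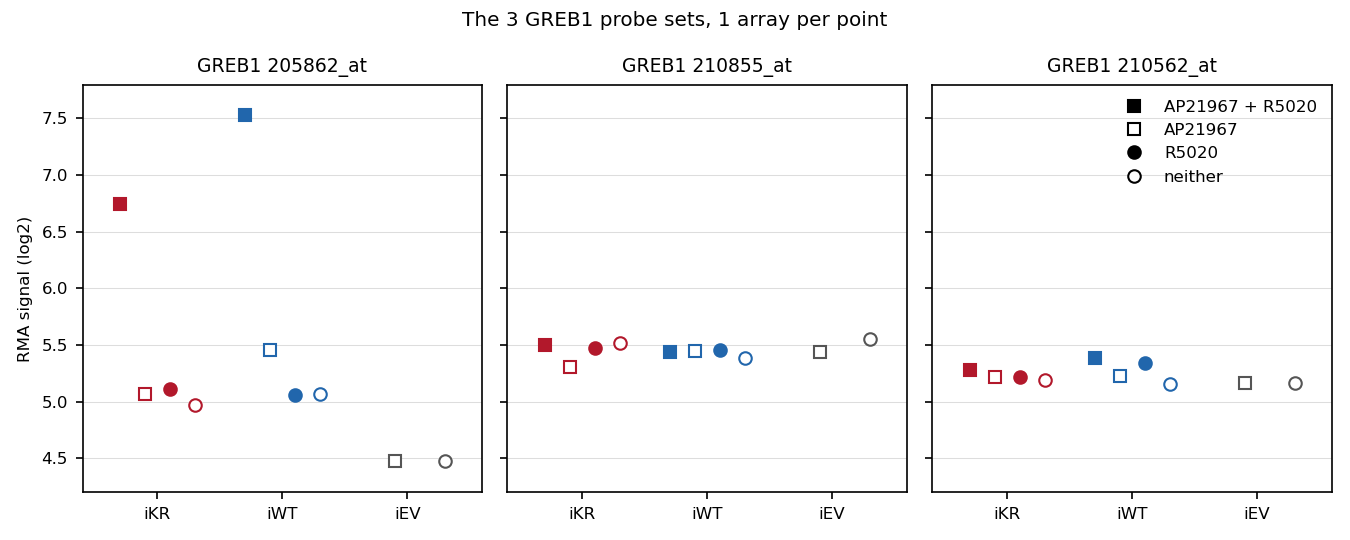
Level of the 3 GREB1 probe sets (y axis, RMA log2) in the iKR, iWT and iEV lines (x axis). Each point is 1 array, squares with and circles without AP21967, filled with R5020 and open with vehicle. Probe set 205862_at stands at 6.75 in iKR and 7.53 in iWT with both compounds and at 5.46 or below elsewhere, and the other 2 stay between 5.15 and 5.55.

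The remaining members showed differences several times smaller than that of GREB1 205862_at. Of the 6 members past the level filter, 0 were called for a shared R5020 response with AP21967 by limma, and 3 were at an unadjusted p under 0.05 (STC2 above 0, CTSD and TFF3 below it). Over all tested genes, 5.23% were called higher and 6.25% lower, and 2924 of 10911 were at an unadjusted p under 0.05. Over all 11 member probe sets, 1 was called higher (GREB1 205862_at) and 0 lower, where 4.71% of all probe sets were called higher and 5.12% lower. The median response of the 6 members was 0.00, against 0.01 over all genes tested. In single-array terms, 1 of the 11 probe sets was past 1.5 fold in iKR with AP21967 and the same 1 in iWT, against 5.40% and 2.41% of all probe sets in either direction. Without AP21967, 0 of 11 were past 1.5 fold in either line, against 0.0629% in iKR and 0.0787% in iWT.

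Among the secreted and secretory pathway members, the trefoil peptide TFF1 had different R5020 differences in the 2 lines. In iKR it was at 7.66 with AP21967 and R5020, against 7.74 with AP21967 and vehicle. In iWT it was at 7.87 with AP21967 and R5020, against 7.53 with AP21967 and vehicle. The differences of -0.07 in iKR and 0.34 in iWT lie on opposite sides of 0. The iWT array with AP21967 and vehicle was the lowest of the 4 iWT arrays, and the other 3, including that with vehicle alone, were between 7.76 and 7.87. The shared response was 0.13 (95% interval -0.10 to 0.37, adjusted p = 0.45). Without either iKR array with AP21967 it is the iWT difference of 0.34 between 2 single arrays. Without either iWT array with AP21967 it is the iKR difference of -0.07. The difference between the receptors was -0.42 (standard error 0.13, 95% interval -0.70 to -0.13), with an unadjusted p of 0.0076 and an adjusted p of 0.12 in limma.

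TFF3 had nearly the same R5020 difference in both lines. It was at 8.55 in iKR with AP21967 and R5020, against 8.75 to 9.06 on the 3 other iKR arrays. In iWT it was at 8.34 with AP21967 and R5020, against 8.53 to 8.55 on the 3 other iWT arrays. In each line the array with both compounds was the lowest. The difference from AP21967 with vehicle was -0.20 in iKR and -0.19 in iWT, and the shared response of -0.19 (95% interval -0.37 to -0.02) had an adjusted p of 0.15. AP21967 alone was followed by a difference of -0.31 in iKR, larger than that of R5020, and of -0.02 in iWT and -0.07 in iEV.

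STC2 was higher with R5020 and AP21967 in both lines, at 8.28 in iKR against 7.96 with AP21967 and vehicle, and at 7.92 in iWT against 7.69 with AP21967 and vehicle. The array with both compounds was the highest of its 4 in iKR and in iWT, although in iWT it lay within 0.10 of R5020 alone and of vehicle alone. The shared response was 0.28 (standard error 0.08, 95% interval 0.10 to 0.46, adjusted p = 0.053). It was called with all 10 arrays in the fit (0.31, adjusted p = 0.017), with an intensity trend in the prior (adjusted p = 0.043), with a robust prior (adjusted p = 0.049) and with genes of a mean of log2 7 or more (adjusted p = 0.048). Without either iWT array with AP21967 it is the iKR difference of 0.33 between 2 single arrays. Without either iKR array with AP21967 it is the iWT difference of 0.23 between 2 single arrays. Its second probe set gave 0.07 in iKR and 0.33 in iWT, with a shared response of 0.20 (adjusted p = 0.21 over all probe sets). AGR2, a partner in the folding of secreted proteins, had a shared response of -0.07 (95% interval -0.25 to 0.10), with arrays at 13.77 to 13.97 in iKR and 13.47 to 13.62 in iWT.

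Cathepsin D mRNA was lower with R5020 and AP21967 in both lines. CTSD was at 9.29 in iKR with both compounds, against 9.45 with AP21967 and vehicle, and at 8.85 in iWT with both compounds, against 9.22 with AP21967 and vehicle. The array with both compounds was the lowest of its line in each case, and in iWT it also lay below both iEV arrays (8.97 with and 9.02 without AP21967). The shared response was -0.27 (standard error 0.09, 95% interval -0.46 to -0.08, adjusted p = 0.077). It was called with all 10 arrays in the fit (-0.28, adjusted p = 0.027). Taken alone, 1 array against 1 array, the difference was -0.17 in iKR and -0.38 in iWT. Without AP21967 the R5020 differences were -0.19 in iKR and -0.08 in iWT, and the part of the response that needed AP21967 was -0.14 (95% interval -0.41 to 0.13, adjusted p = 0.67).

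SIAH2 and PDZK1 varied little. SIAH2 spanned 9.76 to 10.04 over the 10 arrays, with R5020 differences of 0.13 in iKR and 0.04 in iWT with AP21967 and a shared response of 0.08 (95% interval -0.10 to 0.26, adjusted p = 0.56). PDZK1 spanned 4.71 to 5.01, below the level filter on every array, with a shared response of 0.05 (95% interval -0.14 to 0.25, adjusted p = 0.76 over all probe sets).

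**Figure D2:**
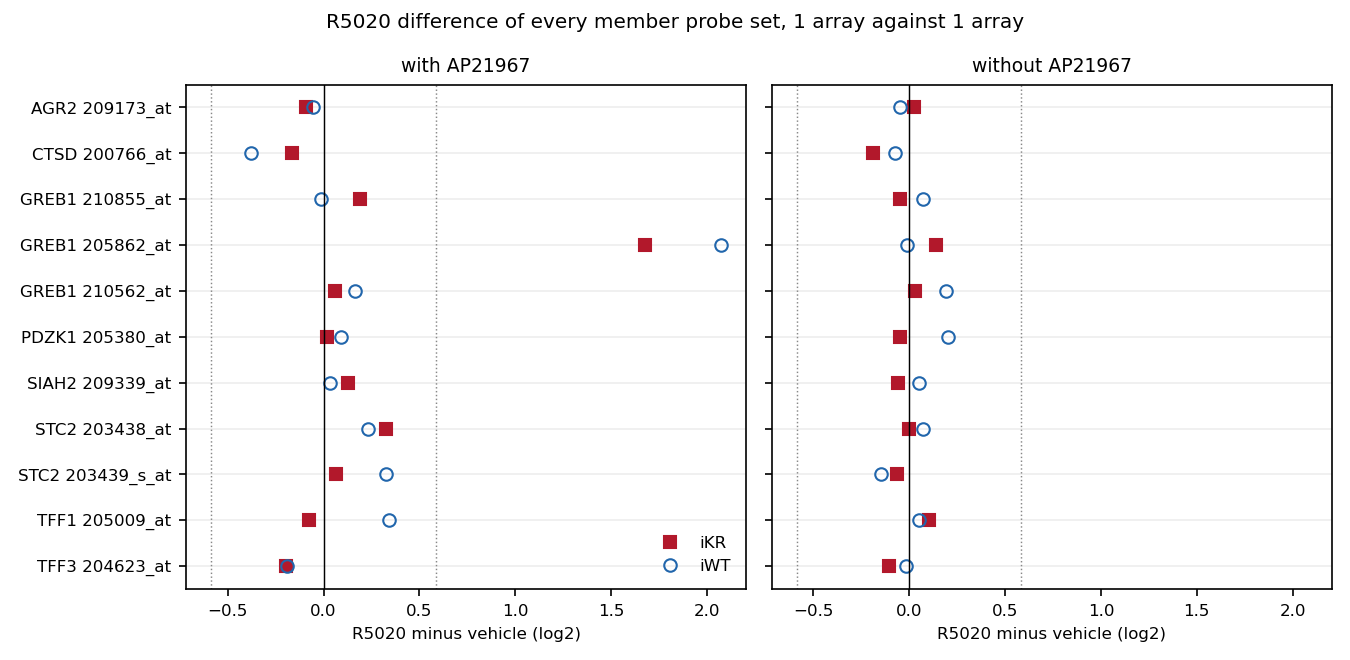
R5020 minus vehicle (x axis, log2) for each of the 11 member probe sets (rows), in iKR (filled squares) and iWT (open circles), with AP21967 on the left and without it on the right. Each point is 1 array against 1 array, and dotted lines mark 1.5 fold. GREB1 205862_at lies at 1.68 and 2.07 with AP21967, and every other point between -0.38 and 0.34.

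Without AP21967, R5020 moved no member past the test. The shared responses of the 6 members ran from -0.13 (CTSD) to 0.08 (TFF1), with 0 called and 0 at an unadjusted p under 0.05 in limma. Over all genes, 0.00917% were called and 431 of 10911 were at that unadjusted p. For the response that depended on the inducer, 0 of 6 members were called and 0 were at an unadjusted p under 0.05. This stands against 2.10% of all genes called and 1611 of 10911 at that unadjusted p for the same inducer-dependent response. Among all probe sets, 1.30% were called higher for it, as was GREB1 205862_at. For the difference between iKR and iWT in the R5020 response with AP21967, 0 of 6 were called, where 2.71% of all genes were called. Of the 6, 1, TFF1, was at an unadjusted p under 0.05, as were 2057 of 10911 genes. This test has 1 residual degree of freedom.

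Between the lines, without R5020, more members passed the test. In iKR, 4 of the 6 were higher than in iEV and 0 lower, where 12.9% of all genes were called higher and 12.8% lower. In iWT, 2 were higher than in iEV and 1 was lower, where 12.0% of all genes were called higher and 11.8% lower. In iKR, 3 were higher than in iWT and 0 lower, where 2.91% of all genes were called higher and 2.11% lower. The median difference of the 6 members was 0.25 for iKR against iEV, 0.05 for iWT against iEV and 0.26 for iKR against iWT, with 0.00, 0.01 and 0.00 over all genes. Each difference stands on 2 arrays per line, and all lie under 1.5 fold in the 6 members.

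CTSD separated all 3 lines. Without R5020 it was at 9.45 with and 9.57 without AP21967 in iKR, at 9.22 with and 9.27 without it in iWT, and at 8.97 with and 9.02 without it in iEV. It was higher by 0.52 in iKR than in iEV (95% interval 0.38 to 0.65, adjusted p = 0.00057), by 0.25 in iWT than in iEV (0.12 to 0.39, adjusted p = 0.015) and by 0.26 in iKR than in iWT (0.13 to 0.39, adjusted p = 0.042) in limma. The call against iEV in iKR held without each array in turn. That in iWT was lost without either iWT array (0.27 and 0.24, adjusted p = 0.097 and 0.14) or without the iEV array lacking AP21967 (0.24, adjusted p = 0.067), and that of iKR against iWT without each of the 4 arrays of these lines (adjusted p = 0.18 to 0.31).

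TFF1 was also higher in both receptor lines. It was at 7.74 with and 7.75 without AP21967 in iKR, at 7.53 with and 7.76 without it in iWT, and at 7.41 with and 7.38 without it in iEV. Both receptor lines lay above iEV and overlapped each other. The difference from iEV was 0.35 in iKR (95% interval 0.18 to 0.53, adjusted p = 0.011) and 0.25 in iWT (0.08 to 0.43, adjusted p = 0.046) in limma. The iWT call was lost in 4 of the other settings (adjusted p = 0.051 to 0.060), without the iWT array lacking AP21967 (0.13, adjusted p = 0.39), without the iEV array lacking AP21967 (0.17, adjusted p = 0.23) and without either iKR array (0.25, adjusted p = 0.058). The iKR call was lost without the iEV array lacking AP21967 (0.28, adjusted p = 0.066) or the iKR array with AP21967 (0.31, adjusted p = 0.095). TFF1 in iKR against iWT was at 0.10 (95% interval -0.07 to 0.28, adjusted p = 0.54).

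TFF3 and AGR2 separated iKR from iWT. TFF3 was at 8.75 with and 9.06 without AP21967 in iKR, at 8.53 with and 8.55 without it in iWT, and at 8.60 with and 8.67 without it in iEV. It was higher by 0.36 in iKR than in iWT (95% interval 0.18 to 0.55, adjusted p = 0.041) and by 0.27 in iKR than in iEV (0.09 to 0.45, adjusted p = 0.040) in limma. The call against iWT was lost without either iWT array or the iKR array lacking AP21967 (0.23 to 0.45, adjusted p = 0.13 to 0.34), and that against iEV without either iEV array (0.22 and 0.32, adjusted p = 0.17 and 0.067) or the iKR array lacking AP21967 (0.14, adjusted p = 0.31). AGR2 was at 13.86 with and 13.95 without AP21967 in iKR, at 13.52 with and 13.62 without it in iWT, and at 13.84 with and 13.83 without it in iEV. iWT stood below both other lines, which together spanned 13.83 to 13.95. AGR2 was higher by 0.33 in iKR than in iWT (95% interval 0.20 to 0.47, adjusted p = 0.021) and lower by 0.26 in iWT than in iEV (-0.40 to -0.13, adjusted p = 0.015). The first call was lost without each of the 4 arrays (0.30 to 0.36, adjusted p = 0.13 to 0.22) and the second without either iWT array or the iEV array with AP21967 (-0.29 to -0.21, adjusted p = 0.080 to 0.16).

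STC2 was higher by 0.24 in iKR than in iEV (95% interval 0.08 to 0.39, adjusted p = 0.037), and by 0.26 in iKR than in iWT without passing the test (0.10 to 0.41, adjusted p = 0.080). The first call was lost without each array but the iEV array lacking AP21967 (0.14 to 0.29, adjusted p = 0.062 to 0.25), with its probe sets averaged (0.17, adjusted p = 0.057) and with every probe set tested (0.24, adjusted p = 0.050). The second STC2 probe set gave 0.11 (95% interval -0.08 to 0.29, adjusted p = 0.44). The difference from iWT was called without either iEV array (0.26, adjusted p = 0.034). SIAH2 was at 0.14 in iKR and 0.13 in iWT against iEV (95% intervals -0.02 to 0.30 and -0.03 to 0.28). GREB1 205862_at was at or below 5.46 on these 6 arrays, under the level filter, and the deposited values do not say whether it was above background there. At these levels iKR stood 0.54 (95% interval 0.32 to 0.76, adjusted p = 0.0064) and iWT 0.78 above iEV (0.56 to 1.00, adjusted p = 0.0012), where 9.42% and 8.64% of all probe sets were called higher. The iKR call was lost without the iKR array lacking AP21967 (0.49, adjusted p = 0.067). iKR against iWT was at -0.24 for this probe set (95% interval -0.46 to -0.02, adjusted p = 0.27).

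**Figure D3:**
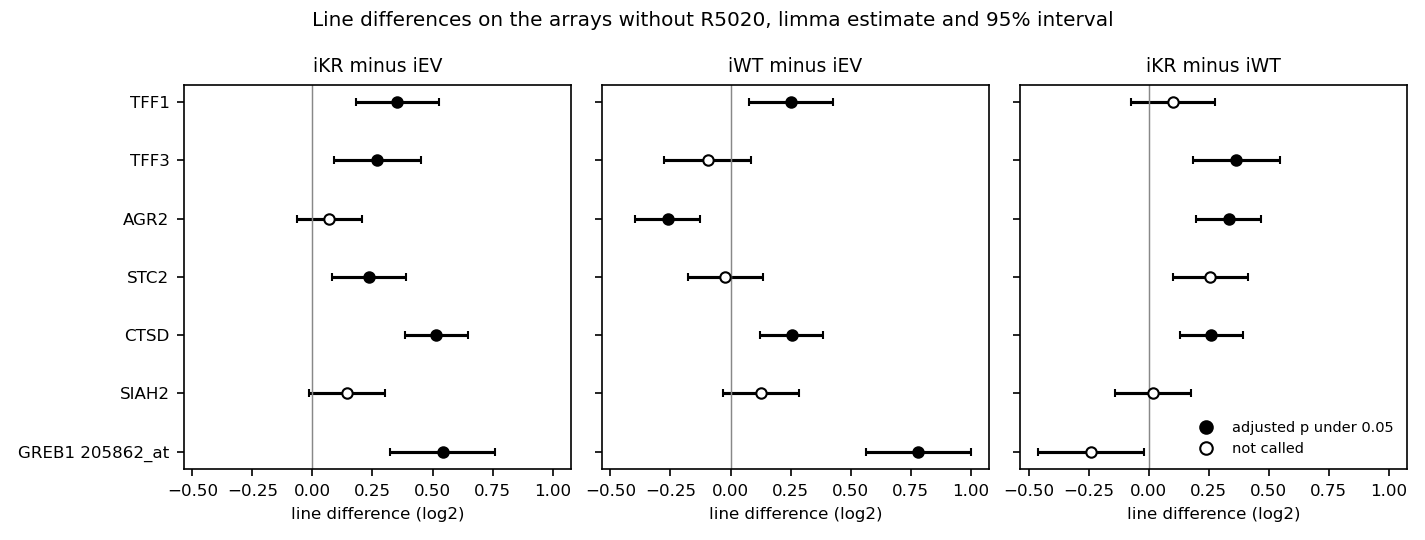
Line differences of the 6 members past the level filter and of GREB1 205862_at (rows) on the 6 arrays without R5020 (x axis, log2). Points are limma estimates with 95% intervals, filled where the adjusted p is under 0.05. GREB1 205862_at lies furthest from 0 against iEV, at 0.54 in iKR and 0.78 in iWT, from levels below the level filter, CTSD is at 0.52 in iKR and 0.25 in iWT, and AGR2 is the member below 0 with a call, at -0.26 in iWT.

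The dimerizer itself was not followed by a call in any member. Over all genes, AP21967 against none, shared by the 3 lines, gave 0% called and 981 of 10911 at an unadjusted p under 0.05. Of the 6 members, 0 were called by limma and 1 was at that unadjusted p. That member was STC2, at -0.19 (95% interval -0.32 to -0.06, unadjusted p = 0.0091, adjusted p = 0.48). Its differences were -0.12 in iKR, -0.13 in iWT and -0.31 in iEV, which carries no receptor. The second STC2 probe set gave another order, at -0.10 in iKR, -0.32 in iWT and -0.03 in iEV.

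**Figure D4:**
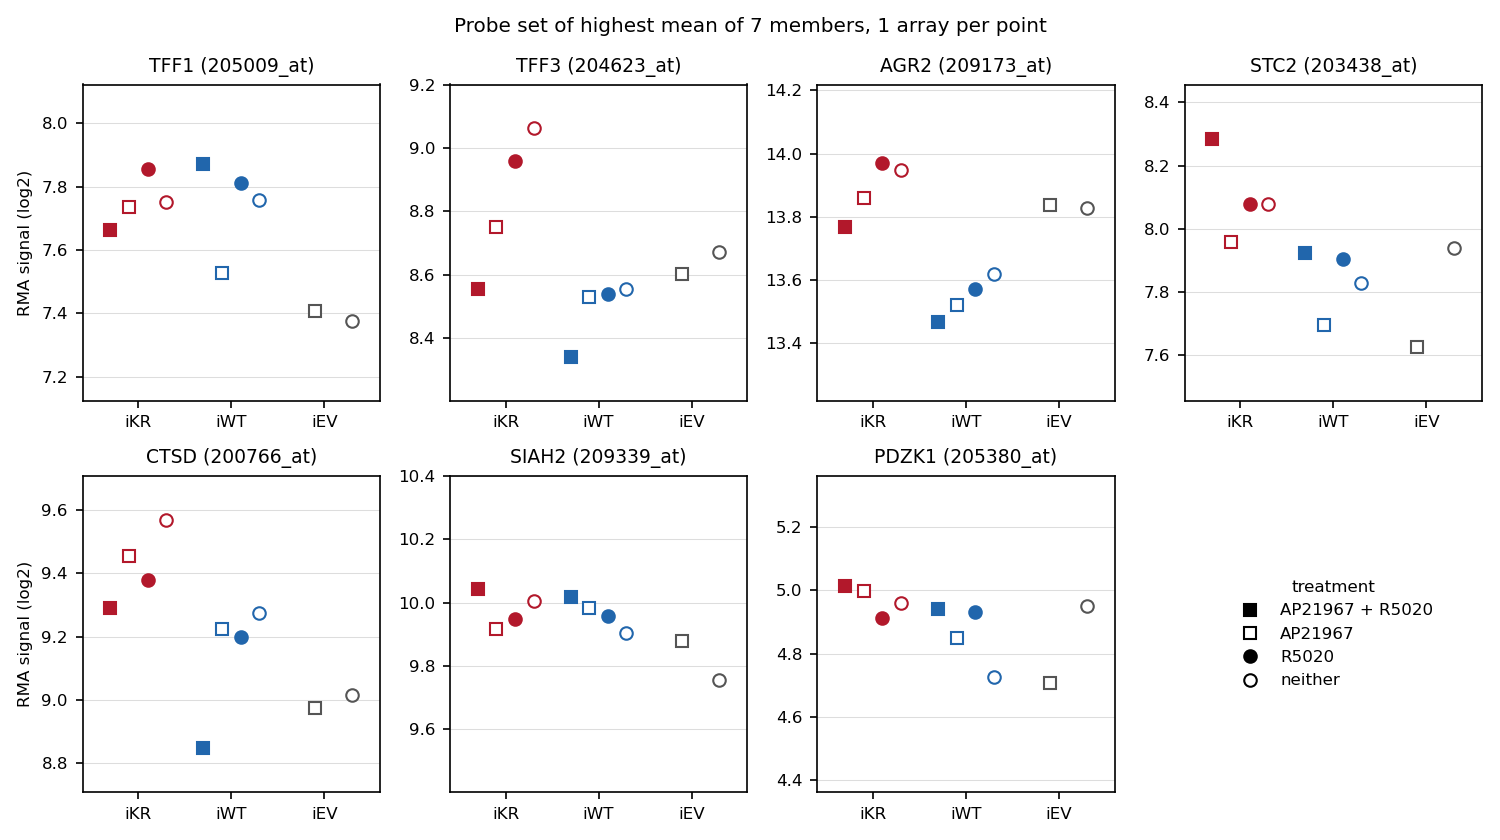
Level of the probe set of highest mean of 7 members (y axis, RMA log2, a span of 1 in each panel) in the iKR, iWT and iEV lines (x axis). Each point is 1 array, squares with and circles without AP21967, filled with R5020 and open with vehicle. CTSD in iWT is at 8.85 with both compounds, TFF3 in iKR spans 8.55 to 9.06, and PDZK1 stays between 4.71 and 5.01.

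Calls among other ER target genes ran in both directions. Of 36 listed, 32 were tested. With R5020 and AP21967 limma called 7 higher and 4 lower, where 5.23% of all genes were called higher and 6.25% lower. An unadjusted p under 0.05 was reached by 17, against 2924 of 10911 genes in all. The list median was 0.04, against 0.01 over all genes. CA12, a carbonic anhydrase, rose by 1.43 (adjusted p = 0.00087), with single-array differences of 1.83 in iKR and 1.03 in iWT. CCND1, the gene of cyclin D1, rose by 0.74 (adjusted p = 0.0083), at 0.42 in iKR and 1.05 in iWT. MYC rose by 0.69 (adjusted p = 0.0013), at 0.76 in iKR and 0.62 in iWT. The others called higher were SLC7A5, PTGES, CXCL12 and CHPT1. IRS1, an adaptor of insulin and IGF1 receptors, fell by 1.07 (adjusted p = 0.0016), and its differences were -1.35 in iKR and -0.78 in iWT. MYB fell by 0.76 (adjusted p = 0.00065), at -0.76 in both lines (-0.34 and adjusted p = 0.027 with its probe sets averaged), and XBP1, a transcription factor of the unfolded protein response, fell by 0.64 (adjusted p = 0.0087), at -0.90 in iKR and -0.38 in iWT. The fourth called lower was CELSR2. The list was written with earlier results of these data known, as were the lists that follow.

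Of 17 genes for ER and its cofactors, 13 were tested, and 6 fell and 0 rose with R5020 and AP21967. Of all genes, 6.25% were called lower and 5.23% higher. An unadjusted p under 0.05 was reached by 8 of the 13, against 2924 of 10911 genes in all. GREB1 is on this list but was not among the 13, since its probe set of highest mean lies under the level filter. Its probe set 205862_at was called higher in the fit over all probe sets. The list median was -0.27, against 0.01 over all genes. FOXA1 fell by 1.01 (adjusted p = 0.0010), at -1.25 in iKR and -0.76 in iWT. TFAP2C, an AP-2 factor of luminal cells, fell by 0.85 (adjusted p = 0.00043), at -0.92 in iKR and -0.78 in iWT. ESR1, the ER gene, fell by 0.79 (adjusted p = 0.0016), and TFAP2A, NCOA2 and GATA3 were the others. ESR1 was at 8.68 in iKR with AP21967 and R5020, against 9.65 with AP21967 and vehicle, and at 10.14 in iWT with AP21967 and R5020, against 10.75 with AP21967 and vehicle. It was at 10.70 on both iEV arrays, with and without AP21967. The ESR1 response was carried by 1 of 9 probe sets, since the 8 dimmer ones lay between -0.30 and 0.17 in iKR and between -0.20 and 0.20 in iWT, and averaged over its probe sets it was -0.12 (adjusted p = 0.31). Without R5020, ESR1 was lower by 0.82 in iKR than in iEV (95% interval -1.07 to -0.58, adjusted p = 0.0011) and by 0.90 in iKR than in iWT (-1.14 to -0.66, adjusted p = 0.0046), on the same arrays on which CTSD and TFF3 were higher in iKR. On these arrays ESR1 in iKR was at 9.65 with and 10.10 without AP21967. AP21967 against none gave -0.44 in iKR, -0.05 in iWT and -0.0002 in iEV. Averaged over its probe sets, the difference from iEV was -0.23 (adjusted p = 0.039). The iKR against iWT call of ESR1 was lost when its probe sets were averaged (-0.24, adjusted p = 0.091) and without the iWT array with AP21967 (-0.81, adjusted p = 0.055). Its part in the levels of the members was not tested.

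The remaining lists were smaller, and their counts for R5020 with AP21967 stand against 5.23% of all genes called higher and 6.25% lower. Of all genes, 2924 of 10911 were at an unadjusted p under 0.05 for this response. Of 8 tested relatives of the members, such as TFF2, STC1 and SIAH1, 0 were called with R5020 and AP21967 (2 at an unadjusted p under 0.05 in limma). Of 5 tested genes reported to be repressed by estrogen in MCF-7 breast cancer cells, 4 fell and 0 rose, and these were CCNG2, a cyclin of cell cycle arrest (-0.95, adjusted p = 0.0033), EFNA1, an ephrin ligand (-0.47, adjusted p = 0.0063), the receptor tyrosine kinase gene ERBB2 (-0.37, adjusted p = 0.028) and BCAS1. The ERBB2 call was lost without either iWT array with AP21967, which leaves the iKR difference between 2 single arrays (-0.26, adjusted p = 0.078), and CCNG2 was at -0.61 without either iKR array with AP21967. Of 9 luminal epithelial markers, 4 fell, namely SPDEF (-0.66, adjusted p = 0.0012, and -0.38 with its probe sets averaged), ELF3 (-0.66, adjusted p = 0.0018), ELF5 (-0.60, adjusted p = 0.0074, and -0.39 without either iKR array with AP21967) and CLDN4, of which the first 3 are epithelial ETS factors, and 0 rose. Of 12 tested markers of other cell types, 0 were called and 0 were at an unadjusted p under 0.05 in limma for this response. Between the lines, 12.0% of all genes were called higher and 11.8% lower in iWT than in iEV, and 12.9% and 12.8% in iKR. Of the 12 markers, 1, ACTA2, was higher (0.21, adjusted p = 0.045) and 1, VIM, lower (-0.33, adjusted p = 0.011) in iWT than in iEV. In iKR, 0 of them were called. Of the 9 luminal markers, 1, CLDN4, was called against iEV, higher by 0.85 in iKR and by 0.89 in iWT (adjusted p = 7.1e-05 and 6.9e-05 in limma). The part of ACTA2, VIM and CLDN4 in the line differences of the members was not tested.

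**Figure D5:**
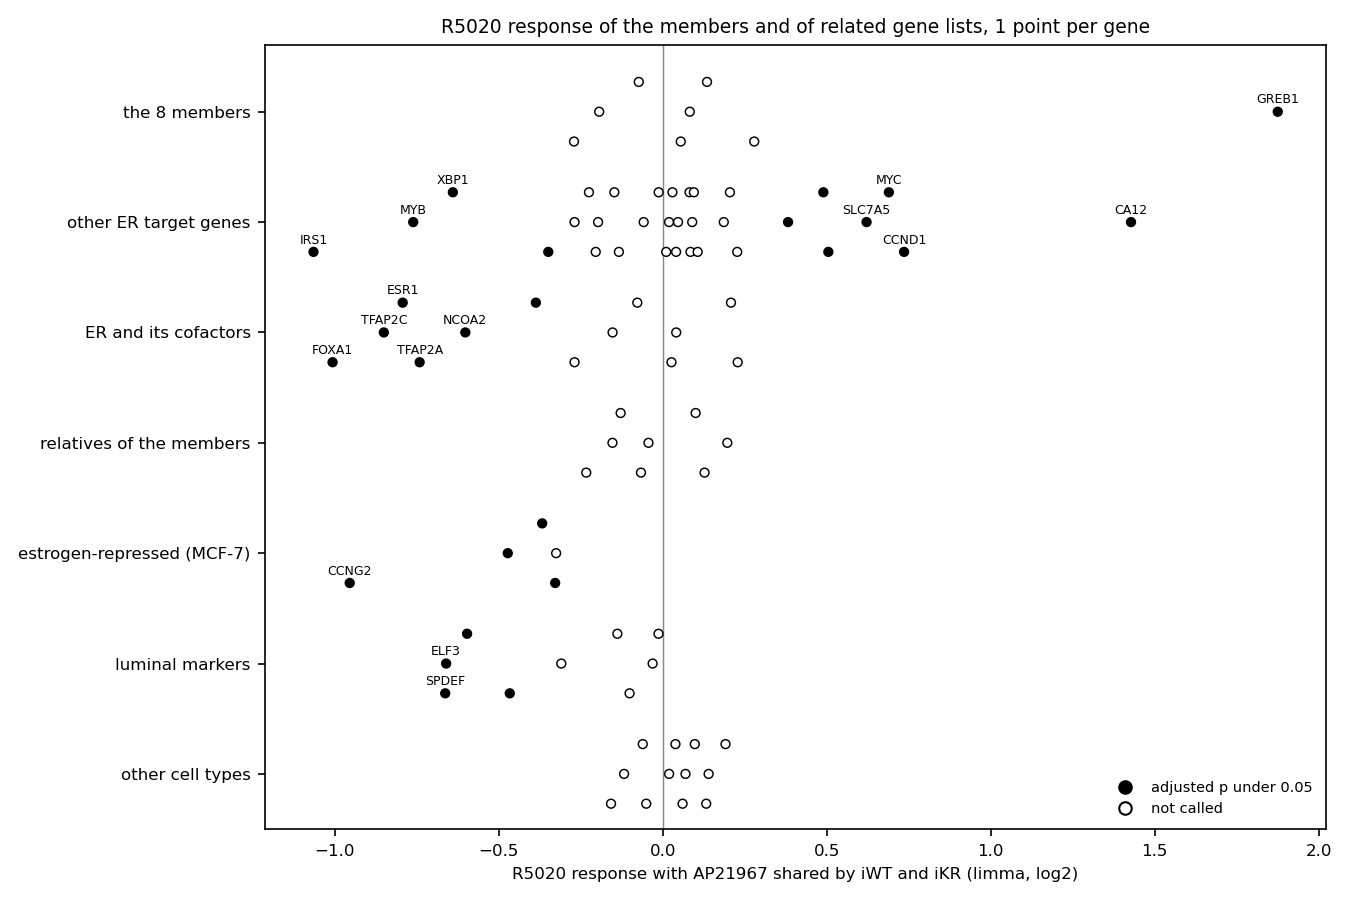
Shared R5020 response with AP21967 (x axis, limma, log2) of the members and of 6 gene lists (rows), 1 point per gene, filled where the adjusted p is under 0.05 and named where the response is past 0.6 and called. GREB1 is drawn by probe set 205862_at, singled out after its values were seen and not its probe set of highest mean. PDZK1 is drawn by its only probe set, and both come from the fit over all probe sets. GREB1 205862_at is the only filled point of the members, at 1.88. ER and its cofactors have 6 filled points, all below 0, and GREB1, which is on that list too, is not drawn there.

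Between the lines, 12 of the 32 other ER targets were higher and 5 lower in iKR than in iEV, where 12.9% of all genes were called higher and 12.8% lower. In iWT, 10 were higher and 5 lower than in iEV, against 12.0% and 11.8% of all genes. IGF1R, the IGF1 receptor gene, was higher by 1.99 in iKR and by 2.00 in iWT (adjusted p = 2.6e-06 and 3.4e-06), and HSPB8, a small heat shock protein gene, by 1.19 and 1.40. CA12 was lower by 1.25 in iKR and by 0.55 in iWT than in iEV (adjusted p = 7e-06 and 0.00041). Between the receptor lines, 3 were higher in iKR than in iWT (OLFM1, PRSS23 and SLC7A5) and 2 lower (ABAT and CA12), against 2.91% and 2.11% of all genes.

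The genes whose pattern over the 10 arrays was most like that of each member were found among 775 tested genes with a standard deviation of at least 0.3. The arrays share lines and treatments, so these correlations describe 10 arrays and carry no p. CTSD was most like ARID5B, a chromatin regulator (Pearson r = 0.97, Spearman rho = 0.94), and TRIP6 (r = 0.94, rho = 0.92). TFF3 was most like SMAD1 (r = 0.92, rho = 0.68) and MMRN2 (r = 0.89, rho = 0.87). STC2 was most like FMO5 (r = 0.92, rho = 0.88) and HSD17B1, an enzyme that makes estradiol from estrone (r = 0.86, rho = 0.81). AGR2 was most like NCAPD2 and CYBRD1 (r = 0.89 each, rho = 0.72 and 0.81). TFF1 was most like ALDH1A3 and SYTL2 (r = 0.88 and 0.86, rho = 0.71 and 0.62), and SIAH2 like ETS2 and PAK1IP1 (r = 0.88 each, rho = 0.68 and 0.83). The best matches of PDZK1 were CIB2 (r = 0.75, rho = 0.71) and KRT4 (r = 0.72, rho = 0.62). Those of GREB1 210855_at were RPS6KA5 (r = 0.53, rho = 0.28) and TSC22D3 (r = 0.52, rho = 0.27). GREB1 205862_at, a probe set singled out after its values were seen, was most like TNFRSF10B, a death receptor gene, and GRB10, an adaptor of insulin signalling (r = 0.97 each, rho = 0.85 and 0.81).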

How the data were processed

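RNA from 10 conditions of clonal inducible T47D-Y lines was hybridised to Affymetrix U133A 2.0 arrays, 1 array each. The authors deposited log2 signals per probe set, made in R by Robust Multi-array Average (background adjustment, quantile normalisation and summary); versions are not given in the sources used here. From these values, probe sets were paired with genes by the platform annotation (19070 with 1 gene, 1043 with several, 2164 with none listed, of 22277). Array medians were 8.12 to 8.15; arrays have no depth, and their number limits the precision.

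Linear models were fitted with limma 3.58.1 (R 4.3.3) and Benjamini-Hochberg adjustment over 10911 genes, called under 0.05: R5020 effects with and without AP21967 on the 8 iKR and iWT arrays (2 residual degrees of freedom), a receptor difference (1 residual degree of freedom), and line and AP21967 effects on the 6 arrays without R5020 (2 residual degrees of freedom). The level filter and gene-level probe set are given in the report. GREB1, PDZK1 and second probe sets were read from a fit over 19070 probe sets without the filter. Fits were run on simulated data with independent noise and added changes larger than any difference of the members past the level filter. Changes of the size seen in those members were not simulated. Tables used Python 3.11.15 with pandas 2.3.3, and figures matplotlib 3.10.9.

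The members, gene lists and tests were chosen with earlier results of these data known. Named genes are all members, PGR, ESR1 and FKBP5, per list up to 3 called genes with the largest R5020 response in each direction, and 2 most alike genes per member; NCOA2, TFAP2A, GATA3, CELSR2, BCAS1, CLDN4, SLC7A5, PTGES, CXCL12, CHPT1, IGF1R, HSPB8, OLFM1, PRSS23 and ABAT were named after their values were seen. Alternatives were the level filter, the probe set rule, cyclic loess, median centring, other limma priors, all 10 arrays and leaving out each array.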

Additional observations from a re-analysis of the deposited data

Results flagged for a closer look

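Among the members, 2 probe sets had R5020 differences with AP21967 of opposite sign in the 2 receptor lines. For TFF1 the difference was -0.074 in iKR and 0.34 in iWT, so that iKR minus iWT was -0.42 (adjusted p = 0.12 from limma). For GREB1 210855_at it was 0.19 in iKR and -0.013 in iWT, so that iKR minus iWT was 0.20 (adjusted p = 0.50 over all probe sets).

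Among PGR, ESR1, FKBP5 and the genes of the lists, CA12, CCND1, PTGES, CCNG2 and PGR passed the test of the receptor difference itself. That test has 1 residual degree of freedom and called between 87 and 990 genes in all under the settings tried. PTGES was higher by 0.20 in iKR and 0.81 in iWT, and this difference was called. CA12 was higher by 1.83 in iKR and 1.03 in iWT, a difference of 0.80 (adjusted p = 0.0074), which was not called when its probe sets were averaged (0.64, adjusted p = 0.072) or without _x_at and _s_at probe sets (0.64, adjusted p = 0.12). CCND1 was higher by 0.42 in iKR and 1.05 in iWT, a difference of -0.63 (adjusted p = 0.026), which was not called when its probe sets were averaged (-0.52, adjusted p = 0.094). CCNG2 was at -1.30 in iKR and -0.61 in iWT, a difference of -0.69 (adjusted p = 0.018). PGR, which each receptor line carries as a construct, was at -0.71 in iKR and 0.55 in iWT, a difference of -1.26 (adjusted p = 0.00077), which was not called with all 10 arrays in the fit (-0.49, adjusted p = 0.57). These differences rest on 1 array per condition.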

How the results depend on the processing

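The number of members called for the R5020 response with AP21967, 0, became 1 with a mean of log2 7 or more, with an intensity trend and with a robust prior, 2 with all 10 arrays, and 0 to 2 without single arrays. The 4 members called for iKR against iEV and the 3 for iKR against iWT became 2 and 1 when every probe set was tested, and without single arrays they were 2 to 3 and 0 to 4; the 3 for iWT against iEV were 0 to 2 without single arrays. Counts of 0 members in the other comparisons stayed 0. Over all genes, the 1 call for R5020 without AP21967 became 0 with all 10 arrays and 1 to 7 without single arrays; the 229 inducer-dependent calls became 149 after cyclic loess, 351 with the trend, 528 with all 10 arrays and 124 to 1528 without single arrays. The 296 calls for the receptor difference became 568 with a mean of log2 7 or more, 87 with averaged probe sets, 179 after median centring, 564 after cyclic loess and 990 with the trend. The 547 calls for iKR against iWT became 988 with the trend, 940 with all 10 arrays and 66 to 770 without single arrays. Without single arrays, the R5020 response with AP21967 had 1043 to 2214 calls, iWT against iEV 1172 to 2455, iKR against iEV 1554 to 2366 and AP21967 0 to 3. The cause was not tested. Without single arrays, values that crossed 0 ran from -0.074 to 0.34 (TFF1) and -0.013 to 0.19 (GREB1 210855_at) for the R5020 response with AP21967, from -0.11 to 0.070 (STC2) and -0.049 to 0.20 (ESR1) for iWT against iEV, and from -0.018 to 0.22 (TFF1) and -0.54 to 0.82 (PGR) for iKR against iWT. PGR in iKR against iWT was -0.14 with all 10 arrays, against 0.14 otherwise. When the gene was read as the mean of its probe sets, GREB1 had a response of 0.69 (adjusted p = 0.0017), but it then passed the level filter only through the iWT array with both compounds. In the list of ER and its cofactors, 1 gene was called higher with the mean of probe sets, and this was GREB1.

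Arrays could not be paired by replicate number, because every label carries replicate number 1, so that the groups share fewer than 2 numbers. The fits instead compared R5020 with vehicle within each line and inducer state, and the lines within each inducer state. Leaving out arrays was not run for the receptor difference, which would have no residual degrees of freedom. With 1 array per condition, each fit takes the lines or inducer states as replicates of each other. Without an array with AP21967 of 1 receptor line, the R5020 response is the other line's difference between 2 single arrays, which is assumed to vary like the arrays without AP21967.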
